A study of Mus musculus with 12 samples.

Results

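Fast-twitch muscle fibres are built from their own versions of the contractile and calcium-handling proteins, and 10 genes for such proteins were followed through mammary fat pad RNA. They were chosen by name: the myosin heavy chain genes Myh4, Myh1 and Myh2, the fast regulatory myosin light chain Mylpf, the fast troponin genes Tnnt3, Tnni2 and Tnnc2, the Z-disc protein gene Actn3, the calcium pump gene Atp2a1 and the calcium buffer gene Pvalb. All 10 were found among 55487 Ensembl gene IDs, and all 10 were among the 18647 genes with enough reads to be tested. The libraries came from female C57BL/6 mice at postnatal day 84, 4 weeks after folic acid supplementation. In 6 libraries the mice had received 5 mg/kg folic acid, and in the other 6 they had received 1 mg/kg. No allele, transgene or further agent is given for either group, so all 12 libraries share the strain, age and tissue. Each library was made from RNA of a right thoracic fat pad frozen whole. The title of each library carries its own number, but no label says that it names an animal, so p-values measure the spread between these libraries. The series asked how folic acid intake during juvenile and peri-pubertal life relates to the RNA of the gland.

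Skeletal muscle contracts when calcium released into the fibre binds troponin C, which lets myosin heads pull on actin. Fast fibres of the mouse are sorted by their myosin heavy chain: type IIB fibres carry Myh4 and are the fastest, type IIX fibres carry Myh1, and type IIA fibres carry Myh2 and rely more on mitochondria. Slow fibres carry Myh7. The thoracic fat pad of the mouse lies beside body wall muscle, and fibres there are not part of the mammary epithelium. In such bulk tissue, fewer fibres and less RNA per fibre cannot be told apart.

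The depth was 48165752 to 75299437 gene-assigned reads per library, of which 39.2% to 59.5% came from the mitochondrial ribosomal RNA genes. The 10 fast-twitch genes took 1.17% to 1.72% at 5 mg/kg and 0.820% to 3.45% at 1 mg/kg. The labels name no batch. Among other tissues in the pads, the summed level of the 8 brown fat markers covered 32.0 to 1479 CPM (reads relative to the scaled library size, as TMM-scaled CPM) in the 5 mg/kg group, against 51.5 to 779 CPM in the 1 mg/kg group. Lymphoid markers, 6 genes, summed to 3.97 to 379 CPM in the 5 mg/kg group, against 3.17 to 565 CPM in the 1 mg/kg group. The part of these tissues in the muscle results was not tested. Heart muscle markers were close to 0, with a sum over 7 genes of 1.43 to 3.17 CPM in the 5 mg/kg group, against 1.21 to 2.57 CPM in the 1 mg/kg group. Of the 7, Tnnt2 was the most abundant and Myh6 had the smallest unadjusted p (0.0202 by edgeR).

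In GENCODE vM21 (GRCm38) the annotation places Myh4 (ENSMUSG00000057003) at chr11:67238029-67260446 on the plus strand, Myh1 (ENSMUSG00000056328) at chr11:67200052-67224575 on the plus strand and Myh2 (ENSMUSG00000033196) at chr11:67171027-67197517 on the plus strand. Of the light chain and troponin genes it places Mylpf (ENSMUSG00000030672) at chr7:127208890-127214298 on the plus strand, Tnnt3 (ENSMUSG00000061723) at chr7:142498836-142516009 on the plus strand, Tnni2 (ENSMUSG00000031097) at chr7:142441808-142444410 on the plus strand and Tnnc2 (ENSMUSG00000017300) at chr2:164777161-164779967 on the minus strand. The others are Actn3 (ENSMUSG00000006457) at chr19:4861216-4877909 on the minus strand, Atp2a1 (ENSMUSG00000030730) at chr7:126445858-126463108 on the minus strand and Pvalb (ENSMUSG00000005716) at chr15:78191114-78206400 on the minus strand. All are protein-coding, and the reads of all exons of a gene were counted together.

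Myh4, Myh1 and Myh2 lie side by side on chromosome 11 and resemble each other so closely that part of their reads cannot be assigned. Of 5817 coding positions that could be aligned among them, 85.3% were identical in all 3 genes. The most variable stretch of 60 bases is shown because reads from such places are what separates the fibre types. It lies at chr11:67254103-67254493 in Myh4, chr11:67215944-67217499 in Myh1 and chr11:67190410-67191383 in Myh2 (GRCm38, plus strand, GENCODE vM21 transcripts, introns left out), and capitals mark the 25 positions that differ among the genes.
Myh4: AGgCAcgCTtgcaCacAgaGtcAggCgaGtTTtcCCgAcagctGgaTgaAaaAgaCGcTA
Myh1: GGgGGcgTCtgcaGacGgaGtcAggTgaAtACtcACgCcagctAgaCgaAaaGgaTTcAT
Myh2: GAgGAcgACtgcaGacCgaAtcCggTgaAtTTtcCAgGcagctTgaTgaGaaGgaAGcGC

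The opposite case is the longest run shared letter for letter, 140 bases at chr11:67246503-67248546 in Myh4, at chr11:67207552-67208953 in Myh1 and at chr11:67180907-67181135 in Myh2, which is shown once because a read inside it fits all 3 genes.
Myh4, Myh1 and Myh2: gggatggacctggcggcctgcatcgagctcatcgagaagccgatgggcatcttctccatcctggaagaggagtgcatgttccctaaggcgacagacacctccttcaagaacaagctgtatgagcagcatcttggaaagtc

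Of all windows of 50 bases in their transcripts, 81.1% for Myh4, 74.6% for Myh1 and 77.1% for Myh2 were found in no other sarcomeric myosin heavy chain gene. Reads aligned to more than 1 place made up 8.30% to 10.5% of a library and were not given to any gene. With a kit that does not mark strand, exons shared with genes on the opposite strand leave part of the count uncertain: Tnnc2 shares 74.0% of its exon bases with Ube2c, Atp2a1 21.9% with Rabep2, Myh1 8.11% with Myhas and Myh2 3.32% with 9430073C21Rik. The slow myosin gene Myh7, which is not a member, shares 13.3% with genes on the opposite strand.

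The start regions of the 3 myosin genes are shown because the genes are neighbours whose levels differ widely. Each window holds 250 bases before and 50 bases after the RefSeq start (GRCm38.p6, plus strand): chr11:67237562-67237861 for Myh4, chr11:67199852-67200151 for Myh1 and chr11:67170777-67171076 for Myh2. Capitals mark matches on either strand to TATAAA, to the E-box CAGCTG and to the MEF2 consensus, the site of a muscle transcription factor family.
Myh4: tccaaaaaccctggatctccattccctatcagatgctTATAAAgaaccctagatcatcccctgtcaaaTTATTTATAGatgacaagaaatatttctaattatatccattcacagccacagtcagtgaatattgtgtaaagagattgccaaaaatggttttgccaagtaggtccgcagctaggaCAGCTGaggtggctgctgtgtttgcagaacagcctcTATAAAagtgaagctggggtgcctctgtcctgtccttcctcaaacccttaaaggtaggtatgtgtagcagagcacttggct
Myh1: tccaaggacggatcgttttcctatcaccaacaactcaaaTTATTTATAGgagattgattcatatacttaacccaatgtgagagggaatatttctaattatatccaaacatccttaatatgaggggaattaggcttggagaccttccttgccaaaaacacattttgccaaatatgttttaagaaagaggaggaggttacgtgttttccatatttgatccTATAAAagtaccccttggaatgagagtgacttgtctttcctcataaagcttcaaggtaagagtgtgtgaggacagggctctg
Myh2: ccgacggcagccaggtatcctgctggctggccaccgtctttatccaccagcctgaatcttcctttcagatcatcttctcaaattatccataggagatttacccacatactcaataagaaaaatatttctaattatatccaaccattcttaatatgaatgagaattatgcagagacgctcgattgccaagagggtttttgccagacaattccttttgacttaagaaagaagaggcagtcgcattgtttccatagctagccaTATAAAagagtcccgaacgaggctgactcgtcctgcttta

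Counting from the start, TATAAA began at -31 in Myh4 and at -32 in Myh1, and both windows held the same MEF2 match, TTATTTATAG, which overlaps a further TATAAA match on the other strand. In the Myh2 window TATAAA began 10 bases after the annotated start, and neither the MEF2 consensus nor CAGCTG was matched in these letters. Windows were available for 7 of the 10 genes, 8 windows in all, of which 3 held TATAAA, 3 CAGCTG and 3 MEF2. Among all 32851 promoter windows of this length, 13.6% held TATAAA, 16.3% CAGCTG and 3.19% MEF2. These matches are a description of the letters.

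Myh4 and Tnnt3 were the most abundant members. Levels between genes are compared per length, as TMM-scaled RPKM, the CPM per kilobase of exon, where TMM is the scaling of libraries by edgeR. Myh4 ranked first in 10 of the 12 libraries and second in the rest, with 742 to 1905 RPKM at 5 mg/kg (median 1273) and 468 to 3713 RPKM at 1 mg/kg (median 1412). Tnnt3, the troponin that ties the complex to tropomyosin, held the other place, with 635 to 1980.3 RPKM (median 1029) at 5 mg/kg and 370 to 3107 RPKM (median 1121) at 1 mg/kg. Myh2 ranked last in every library.

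Among the thick-filament genes, Myh1 lay at 116 to 410.0 RPKM at 5 mg/kg (median 137) and at 45.4 to 371 RPKM at 1 mg/kg (median 148). For Myh2 the level was 42.1 to 161 RPKM (median 57.1) at 5 mg/kg and 18.5 to 102 RPKM (median 53.3) at 1 mg/kg. Myh1 and Myh2 were highest in replicate 5 at 5 mg/kg and lowest in replicate 1 at 1 mg/kg, and their groups overlapped. Mylpf, which sits on the neck of the fast myosin head, had 334 to 854 RPKM at 5 mg/kg (median 448) and 151 to 1190.4 RPKM at 1 mg/kg (median 476).

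Of the thin-filament genes, the inhibitory troponin Tnni2 had 253 to 794 RPKM at 5 mg/kg (median 408) and 156 to 1163 RPKM at 1 mg/kg (median 439). The calcium sensor Tnnc2 had 500.2 to 1542 RPKM at 5 mg/kg (median 798) and 300.5 to 2298 RPKM at 1 mg/kg (median 875), with its length uncertain for the overlap given above. In both, the 1 mg/kg libraries spanned the whole range of the 5 mg/kg libraries and went beyond it at either end. Actn3, the alpha-actinin of fast Z-discs, lay at 134 to 328 RPKM at 5 mg/kg (median 221) and at 64.4 to 679 RPKM at 1 mg/kg (median 242).

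The calcium-handling members followed the same course. Atp2a1 encodes the pump that returns calcium to the sarcoplasmic reticulum, and it had 428 to 1242 RPKM at 5 mg/kg (median 691) and 292 to 1930 RPKM at 1 mg/kg (median 755). Pvalb, parvalbumin, binds calcium in the cytosol and speeds relaxation, and it had 325 to 801 RPKM at 5 mg/kg (median 469) and 148 to 1319 RPKM at 1 mg/kg (median 508). Of the 10 genes, 8 were highest in replicate 3 at 1 mg/kg and lowest in replicate 6 at 1 mg/kg. The ratio of highest to lowest library was 6.62 for Atp2a1, the narrowest, and 10.5 for Actn3, the widest.

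**Figure D1:**
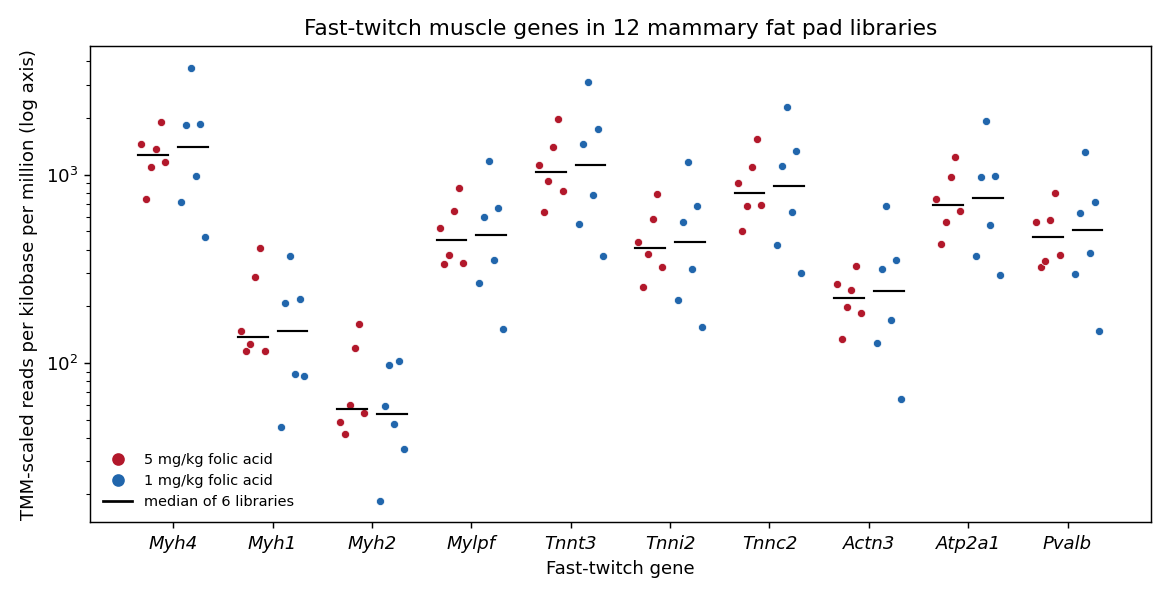
Level of each fast-twitch gene per length (log axis) in 6 libraries at 5 mg/kg and 6 at 1 mg/kg folic acid, with a bar at each group's median. Every gene's groups overlap, and the 1 mg/kg points reach both the top and the bottom of most columns.

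No fast-twitch gene differed between 5 mg/kg and 1 mg/kg past the threshold of an adjusted p of 0.05. By edgeR's quasi-likelihood test 0 of the 10 passed, as did 0 of all 18647 genes (0%), and the smallest adjusted p among the 10 was 0.943. At an unadjusted p under 0.05 the count was 0 of the 10, against 1.93% of all tested genes (1.34% higher and 0.59% lower), and limma-voom and DESeq2 also gave 0 of 10 by either measure. None of the 10 had groups that did not overlap, which held for 0.0429% of all genes.

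The largest estimate belonged to Myh2, with 578 ± 345 CPM in the 5 mg/kg group against 428 ± 241 CPM in the 1 mg/kg group (SD, n = 6 each). The log2 fold change of Myh2 was 0.43 ± 0.45 (SE), with a 95% interval from -0.55 to 1.42 and an edgeR unadjusted p of 0.358. Myh1 was the other member with a positive value, 0.24 ± 0.51, with 1273 ± 773 CPM in the 5 mg/kg group against 1077 ± 772 CPM in the 1 mg/kg group. The remaining 8 had negative values, where 52.8% of all tested genes did so. Myh4 averaged 7761 ± 2349 CPM in the 5 mg/kg group against 9601 ± 7123 CPM in the 1 mg/kg group, and its log2 fold change was -0.31 ± 0.47 with an interval from -1.32 to 0.70. Actn3 had the lowest value, -0.34 ± 0.47, and Mylpf the one closest to 0, -0.074 ± 0.44. The median over the 10 was -0.17, against -0.018 over all tested genes. On the log2 scale the order of the groups was the other way round: the mean log2 CPM over the 10 was 9.99 ± 0.56 at 5 mg/kg and 9.87 ± 1.06 at 1 mg/kg (SD, n = 6 each).

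The sign of most of these values depended on which libraries entered the fit. Without replicate 3 at 1 mg/kg all 10 were positive, with a median of 0.23. Without replicate 5 at 5 mg/kg Myh1 was at -0.10, while Myh2 stayed between 0.11 and 0.65 with any 1 library left out. Without replicates 4 and 5 at 5 mg/kg together all 10 were negative, with a median of -0.50. By limma-voom 8 of the 10 were positive. In none of these fits did a member pass.

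Most of the spread was shared with other muscle genes. The mean log2 CPM of 15 sarcomere genes taken as common to fast and slow fibres, none of them a member, entered the edgeR fit as a covariate. How evenly fast and slow fibres express each of these genes was not tested. With the covariate the standard error of Myh4 became 0.16, against 0.47 without it, and that of Atp2a1 0.11, against 0.45. No member passed in this fit either, where 0 of all genes did (0%), and 3.24% of all genes had an unadjusted p under 0.05, against 0 of the 10. Myh1 was then at 0.28 ± 0.18 (edgeR unadjusted p = 0.154), Myh2 at 0.34 ± 0.23 (edgeR unadjusted p = 0.170) and Myh4 at -0.13 ± 0.16. The other 7 members lay between -0.11 for Actn3 and 0.036 for Mylpf.

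**Figure D2:**
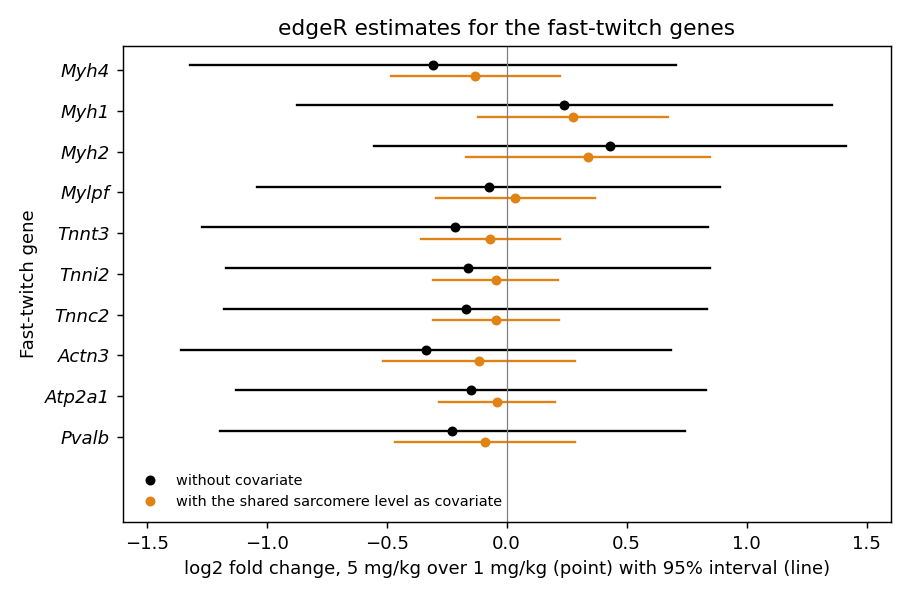
edgeR log2 fold change of each fast-twitch gene, 5 mg/kg over 1 mg/kg, with its 95% interval, without a covariate (black) and with the shared sarcomere level as covariate (orange). Every interval includes 0, and the intervals are narrower with the covariate.

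Within a library, the members kept close proportions to each other. Across the 12 libraries the Pearson correlation of log2 CPM between members ran from 0.71 for Myh2 with Actn3 to 0.999 for Tnnt3 with Tnni2. Leaving out Myh1 and Myh2, the lowest of 28 correlations was 0.96, for Myh4 with Mylpf. These are descriptions over libraries that share tissue, depth and one scaling, and they carry no test. The 3 fast troponin genes, whose products form 1 complex, held the tightest proportions. The log2 ratio of Tnnt3 to Tnni2 per length was 1.32 ± 0.035 at 5 mg/kg and 1.34 ± 0.059 at 1 mg/kg (SD, n = 6 each), and that of Tnnc2 to Tnni2 was 0.98 ± 0.090 at 5 mg/kg and 0.98 ± 0.020 at 1 mg/kg. Actn3 stayed near Myh4, with a log2 ratio of -2.52 ± 0.081 at 5 mg/kg and -2.55 ± 0.16 at 1 mg/kg, while against Myh2 it spread more, with 1.61 ± 0.53 at 5 mg/kg and 2.08 ± 0.73 at 1 mg/kg.

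Set against skeletal actin, Acta1, which all skeletal fibres express, the SD of the log2 ratio over the 12 libraries was 0.14 for Mylpf and 0.15 for Atp2a1. The SD of their own log2 levels was 0.81 and 0.78. The SD of the ratio was 0.26 for Myh4, 0.34 for Myh1 and 0.44 for Myh2, the widest of the members. The log2 ratio of Myh2 to Acta1 was lowest in replicate 1 at 1 mg/kg, -5.46, and highest in replicate 5 at 5 mg/kg, -4.23. The mean of this ratio was -4.59 ± 0.34 at 5 mg/kg and -4.84 ± 0.51 at 1 mg/kg, so the groups differed by less than 1 SD of either.

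**Figure D3:**
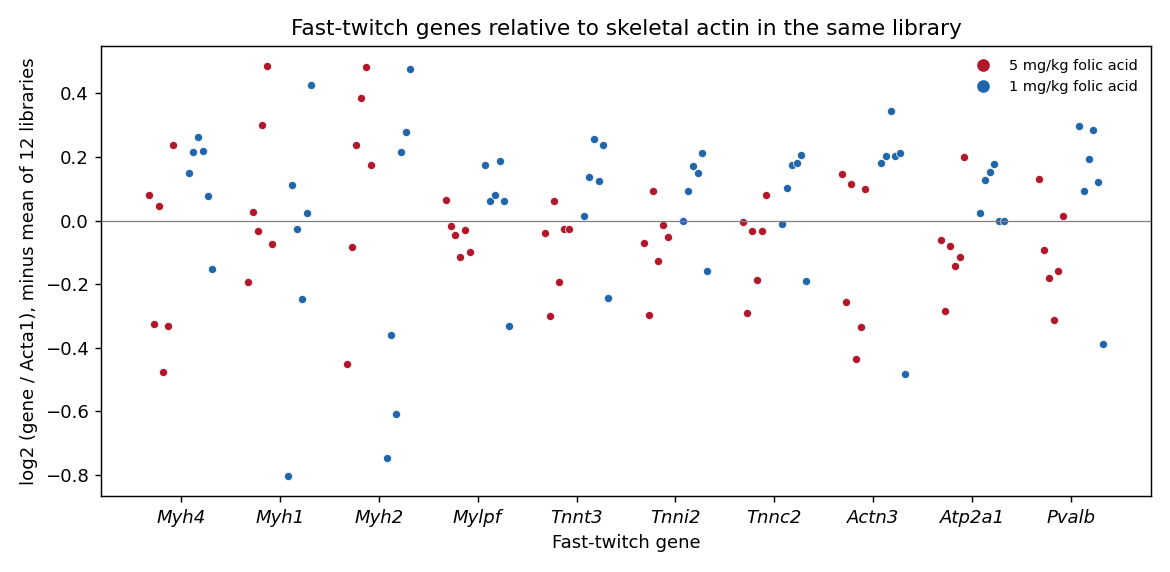
log2 ratio of each fast-twitch gene to Acta1 per length in the same library, centred on the gene's mean over 12 libraries, for 5 mg/kg and 1 mg/kg. Mylpf, the troponin genes and Atp2a1 scatter least, and Myh1 and Myh2 scatter most.

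The balance of fast myosins was led by type IIB in all libraries. Shares were computed per length within a library. Myh4 made up 76.9% to 88.1% of the 3 fast myosins at 5 mg/kg (median 83.9%) and 79.6% to 91.8% at 1 mg/kg (median 87.6%). Myh1 made up 8.61% to 16.6% at 5 mg/kg (median 11.4%) and 5.80% to 14.5% at 1 mg/kg (median 9.41%). For Myh2 it was 2.94% to 6.74% at 5 mg/kg (median 4.68%) and 2.33% to 5.92% at 1 mg/kg (median 3.52%). The lowest Myh4 shares were those of replicates 5 and 4 at 5 mg/kg (76.9% and 77.1%) and of replicate 6 at 1 mg/kg (79.6%), and the highest was that of replicate 1 at 1 mg/kg.

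None of the shares differed between the groups beyond the spread of the libraries. The mean Myh4 share was 82.9 ± 4.96% at 5 mg/kg and 86.8 ± 4.14% at 1 mg/kg (SD, n = 6 each), a difference of -3.87 percentage points (exact two-sided permutation p = 0.169). Myh1 was at 12.2 ± 3.58% at 5 mg/kg and 9.49 ± 2.92% at 1 mg/kg (exact permutation p = 0.182, n = 6 each), and Myh2 at 4.93 ± 1.46% at 5 mg/kg and 3.73 ± 1.46% at 1 mg/kg (exact permutation p = 0.177). Adjusted over the 3 shares each p was 0.182. The shares add to a whole, so the tests are not independent, and 924 assignments of the libraries allow no p under 0.00216. Without replicates 4 and 5 at 5 mg/kg the difference of the Myh4 share was -0.93 points (exact permutation p = 0.705), and without replicate 6 at 1 mg/kg it was -5.31 points (exact permutation p = 0.0714).

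Slow myosin stood beside the fast forms in very unequal amounts. Myh7 made up 0.107% to 5.93% of the sum of Myh7 and the fast 3 at 5 mg/kg (median 2.33%) and 0.00396% to 2.67% at 1 mg/kg (median 0.128%). Replicates 2, 4 and 5 at 5 mg/kg and replicate 6 at 1 mg/kg held more than 2% (3.58%, 4.68%, 5.93% and 2.67%), and the rest 1.08% or less. The mean was 2.70 ± 2.37% at 5 mg/kg and 0.560 ± 1.05% at 1 mg/kg (SD, n = 6 each, exact permutation p = 0.0671). The p was 0.0390 on the scale of log2 ratios, also by exact permutation, or when replicate 6 at 1 mg/kg was left out, and 0.0346 without replicate 6 at 5 mg/kg. Myh7 had only 92, 67 and 185 reads in replicates 1, 3 and 5 at 1 mg/kg, and log2 ratios are sensitive to such low counts. Without replicates 4 and 5 at 5 mg/kg the difference was 0.84 points, against 2.14 with them (exact permutation p = 0.371).

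**Figure D4:**
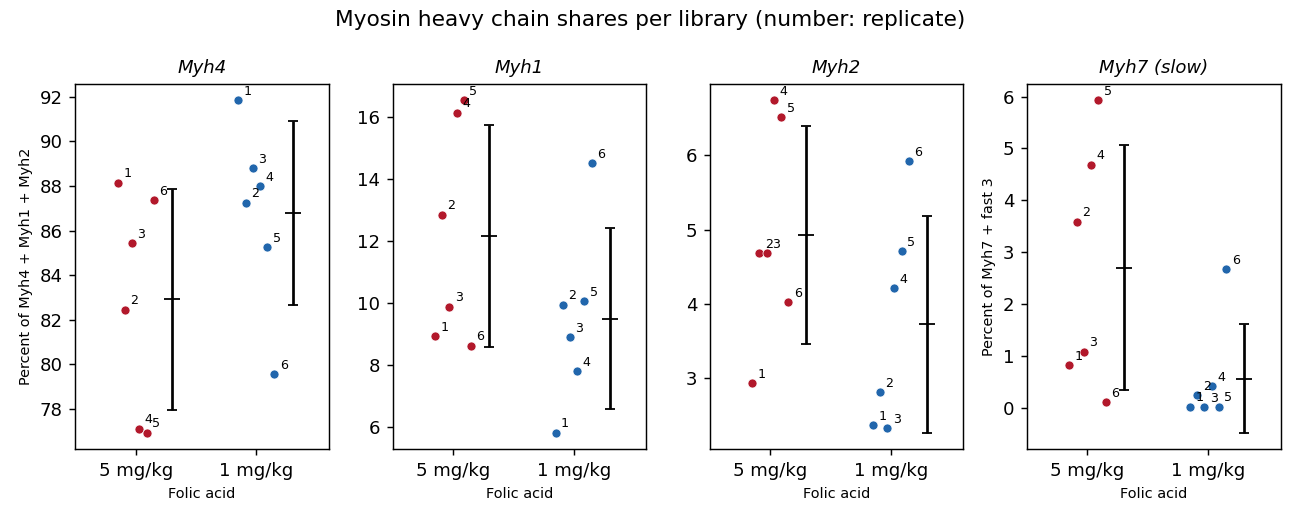
Share of each fast myosin among Myh4, Myh1 and Myh2, and of Myh7 among these and itself, per library (numbers are replicates), with mean and SD at the side; the axes do not start at 0. Replicates 4 and 5 at 5 mg/kg and 6 at 1 mg/kg are lowest for Myh4 and highest for Myh1 and Myh2.

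Libraries with a larger type IIA share also held a larger slow share. Over the 12 libraries Pearson's r between the Myh2 share and the Myh7 share was 0.82 (permutation p = 0.00107, adjusted over 2 relations 0.00214) and Spearman's rho was 0.73 (permutation p = 0.00892, adjusted 0.0178). Without replicate 4 at 5 mg/kg and replicate 3 at 1 mg/kg, the libraries farthest from the median Myh2 share, r was 0.76 (permutation p = 0.00959). Spearman's rho without them was 0.55. Within the groups r was 0.87 at 5 mg/kg (exact permutation p = 0.0306, n = 6) and 0.76 at 1 mg/kg (exact permutation p = 0.0458, n = 6). By rank the values within the groups were weaker, with a rho of 0.83 at 5 mg/kg (exact permutation p = 0.0583) and 0.66 at 1 mg/kg (exact permutation p = 0.175). At 1 mg/kg replicate 6 stood apart with a slow share of 2.67%, and the next highest was 0.415%. The shares have Myh2 in common in their sums. On the scale of log2 ratios, Myh2 over Myh1 against Myh7 over the fast sum, r was 0.21 (permutation p = 0.521), so the relation did not hold for Myh2 relative to Myh1. The Myh1 share was also highest in replicates 5 and 4 at 5 mg/kg and replicate 6 at 1 mg/kg (16.6%, 16.1% and 14.5%). Those libraries held slow shares of 5.93%, 4.68% and 2.67%. A relation of the Myh1 share to the slow share was not tested.

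**Figure D5:**
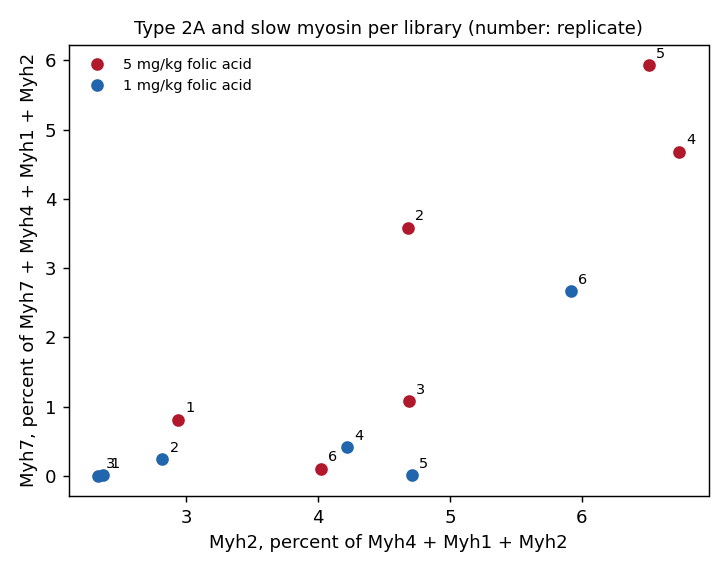
Myh2 as a percent of the fast myosins against Myh7 as a percent of fast and slow myosins, 1 point per library, numbered by replicate, for 5 mg/kg and 1 mg/kg. Replicates 4 and 5 at 5 mg/kg are at the upper right, and replicates 1 and 3 at 1 mg/kg at the lower left.

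The Myh4 share did not follow the amount of muscle over all libraries. Its r with the log2 level of Acta1 was -0.18 (permutation p = 0.579, adjusted 0.579) and rho was -0.19 (permutation p = 0.557). The value rested on replicates 3 and 6 at 1 mg/kg, the farthest from the median Acta1 level: without them r was -0.73 (permutation p = 0.0144). Within the groups r was -0.75 at 5 mg/kg (exact permutation p = 0.126, n = 6) and 0.28 at 1 mg/kg (exact permutation p = 0.628, n = 6).

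Other genes of fast fibres had small values like those of the members, and none passed. Of 16 tested, 14 were lower and 2 higher at 5 mg/kg, with a median log2 fold change of -0.12. Myl1, the fast essential light chain and the most abundant of them, was at -0.23 ± 0.45, and Gys1, muscle glycogen synthase, had the smallest unadjusted p (0.313 by edgeR) at 0.32 ± 0.30. Of the 15 sarcomere genes taken as shared by all fibres 6 were higher and 9 lower, with a median of -0.048. The giant protein gene Ttn was at -0.19 ± 0.43, Acta1 at 0.037 ± 0.44, the muscle creatine kinase gene Ckm at -0.15 ± 0.48 and the ubiquitin ligase gene Trim63 at -0.45 ± 0.51.

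For calcium release, 5 of 12 genes were higher and 7 lower, with a median of -0.023. The release channel Ryr1 was at -0.041 ± 0.38 and the voltage sensor Cacna1s at -0.0048 ± 0.41. Sarcolipin, Sln, an inhibitor of the calcium pump, was the exception in size, with 4.67 ± 4.93 CPM in the 5 mg/kg group against 1.58 ± 0.547 CPM in the 1 mg/kg group and a log2 fold change of 1.56 ± 0.58 (edgeR unadjusted p = 0.0194, adjusted p = 0.943). Of 16 regulators of fibre type 7 were higher and 9 lower, with a median of -0.048. Sox6, which represses slow genes, was at 0.10 ± 0.31, and Mef2c, the most abundant, at -0.16 ± 0.25. Esrra, which controls mitochondrial genes, had the smallest unadjusted p of them (0.0655 by edgeR) at 0.52 ± 0.26.

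Genes listed for slow fibres had larger values than the fast members, without passing. All 12 were higher at 5 mg/kg, with a median of 2.82. Of them 10 had an unadjusted p under 0.05, where 1.34% of all genes were called higher by that measure. The list was chosen with earlier results of these data known, so the counts are a description. Not every listed gene was scarce where Myh7 was. Mybpc1 had 533 CPM in replicate 3 at 1 mg/kg, where Myh7 had 67 reads. Tpm3 and Atp2a2 had 110 and 85.3 CPM in replicate 1 at 1 mg/kg, where Myh7 had 92 reads. How much of the RNA of each listed gene came from slow fibres was not tested. Myh7 averaged 439 ± 515 CPM in the 5 mg/kg group against 38.0 ± 53.3 CPM in the 1 mg/kg group, with a log2 fold change of 3.53 ± 1.32 (edgeR unadjusted p = 0.0198, adjusted p = 0.943), and Atp2a2, the slow counterpart of Atp2a1, was at 1.28 ± 0.42. Tnnt1, slow troponin T, had the smallest unadjusted p (0.00770 by edgeR) at 3.35 ± 1.06, and Mybpc1, with the highest mean CPM of the list, was at 0.45 ± 0.50. Without replicates 4 and 5 at 5 mg/kg 11 of the 12 slow genes were higher, with a median of 1.15, and 0 had an unadjusted p under 0.05. The ratio of a fast troponin gene to its slow partner therefore spanned a wide range: the log2 ratio of Tnni2 to Tnni1 per length was 6.54 ± 2.20 at 5 mg/kg and 10.2 ± 3.04 at 1 mg/kg (SD, n = 6 each). It was lowest in replicate 5 at 5 mg/kg, 4.42, and highest in replicate 3 at 1 mg/kg, 14.0. The highest value rests on 12 reads of Tnni1, which had 21 and 31 reads in replicates 1 and 5 at 1 mg/kg.

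Markers of immature or regenerating muscle were scarce. The embryonic and neonatal myosins Myh3 and Myh8 together made up 0.0103% to 0.0296% of 6 myosin heavy chains per length at 5 mg/kg and 0.0108% to 0.0301% at 1 mg/kg. Of the 5 developmental and special myosin genes 4 were higher and 1 lower, none passing, with Myh8, the most abundant, at -0.35 ± 0.38 and Myh3 at 1.66 ± 0.65 (edgeR unadjusted p = 0.0252, adjusted p = 0.943). Myh3 had 130 reads in replicate 5 at 5 mg/kg and 7 to 53 reads in every other library. Pax7, which marks muscle stem cells, had 0.469 ± 0.202 CPM in the 5 mg/kg group against 0.456 ± 0.247 CPM in the 1 mg/kg group. Among 7 genes of stem cells and nerve-muscle junctions, the acetylcholine receptor subunit Chrnb1, the most abundant, was at 0.021 ± 0.24 and Chrnd, with the smallest p, at 0.32 ± 0.50.

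Genes outside the members were ranked by likeness of log2 CPM over the 12 libraries, among 12859 genes with a mean of at least 1 CPM. The most like Myh4 were Ppp1r14c (Pearson r = 0.994), Mybpc2 (0.992), Prkab2 (0.992), Camk2a (0.991) and Pygm (0.991). The member Actn3, left out of this ranking, had an r of 0.993 with Myh4. For Myh2 they were Lmcd1 (0.989), Slc38a3 (0.970), Perm1 (0.965), St8sia5 (0.965) and Synpo2l (0.959). The 5 genes named for Myh4 and the 5 for Myh2 have no gene in common, and the values describe libraries that share one tissue and scaling.

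Markers of other tissues in the pads, none of which passed, had the following values. These lists were also chosen with earlier results of these data known, so their counts are a description. The brown fat list had 8 of 8 higher values (median log2 fold change 1.77, 4 higher at an unadjusted p under 0.05, against 1.34% of all tested genes), with Ucp1, the heat-producing mitochondrial carrier, at 1.91 ± 1.15 and Kng2 at 2.97 ± 0.96. The 6 adipocyte genes were higher (median 0.40), with Fabp4 at 0.30 ± 0.32 and Lipe at 0.53 ± 0.27. Of 6 luminal epithelial genes 1 was higher and 5 lower, with Krt19 at -0.10 ± 0.38 and Elf5 at -0.59 ± 0.46. The 6 lymphoid genes were lower, with Ms4a1 at -0.80 ± 1.45 and Il7r at -0.80 ± 1.18. Of 8 smooth muscle and myoepithelial genes 3 were higher and 5 lower, with Myh11 at -0.074 ± 0.32 and Cnn1 at -0.15 ± 0.38. The 3 epidermal genes tested were higher, with Krt10 at 3.09 ± 0.99 and Dmkn at 5.04 ± 1.38. Krt10 had 28.3 CPM in replicate 4 and 5.86 CPM in replicate 2 at 5 mg/kg, and 0.407 to 1.08 CPM in every other library. Dmkn had 3.83 ± 7.07 CPM in the 5 mg/kg group (SD). The part of these tissues in the fast-twitch values was not tested.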

How the data were processed

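The submitters' processing notes name STAR, HTSeq 0.6.1 and the mm10 build. No STAR version, annotation or strand setting is given there. The authors deposited raw read counts per Ensembl gene ID, 1 file per library, with 5 closing lines for unassigned reads, which held 16.7% to 35.7% of all reads and stayed out of library sizes and tests. Per the labels' protocols, the kit was Illumina's TruSeq v2 for RNA, which does not mark strand. Symbols were matched for 55141 IDs, and GENCODE vM21 (GRCm38, the same assembly as mm10) gave lengths and positions. Exon length is the union of all annotated exons.

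The fit was made on the whole table in R 4.3.3 by edgeR 4.0.16, using filterByExpr on the groups, TMM factors and the robust quasi-likelihood F-test, 5 mg/kg over 1 mg/kg, with Benjamini-Hochberg adjustment over 18647 genes and a threshold of 0.05. It was also run on simulated counts, drawn gene by gene from the dispersions of the fit. Such counts lack tissue content that moves many genes together, so that run does not show how the test performs in these libraries. Each standard error was derived from the F statistic and the fold change, and 95% intervals from it. Log2 CPM used a prior count of 2. Shares were compared by exact permutation, and relations by 100000 permutations or all pairings within a group. DESeq2 1.42.0, limma-voom (limma 3.58.1), other scalings and filters, a covariate, other lengths and libraries left out were alternatives. Of 30 pairs of libraries within a group, none agreed within sampling noise (lowest chi-square per degree of freedom 41.7).

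Replicate numbers only name libraries, in accession order within a group. The 10 members and the 15 gene lists were chosen with earlier results of these data known. All members are named. Of each other list, the gene with the highest mean CPM and the gene with the smallest p are named. Up to 4 more are named for their role from the slow, shared sarcomere, calcium release and regulator lists. For likeness, the 5 genes outside the members with the highest r to Myh4 and to Myh2 that are not predicted models are named. Pax7 was named beyond this rule, after its values were seen.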

Additional observations from a re-analysis of the deposited data

Results flagged for a closer look

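Of 28 checks for a library far from the others of its group, on the log2 CPM of each member and on the shares, 1 stood out, where chance flags about 1 in 20. The slow share of myosin in replicate 6 at 1 mg/kg was 2.67%, and the next highest of that group was 0.415%. The gap was 0.846 of the range of the group, above Dixon's critical value for 6 samples. The same library had the lowest Myh4 share at 1 mg/kg and the least RNA of 8 of the 10 fast-twitch genes. It also had the fewest gene-assigned reads of all libraries, 48165752. Reads outside genes made up 26.6% of all its reads, the largest part, ahead of 20.8% in replicate 6 at 5 mg/kg. The part of these in its values was not tested.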

How the results depend on the processing

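The count of members past the threshold and that of all genes were 0 under every fit run, 12 with a library left out among them. No paired analysis was possible because the labels give the groups no shared replicate numbers. By limma-voom the log2 fold change turned positive for Tnnt3 (0.037), Tnni2 (0.057), Tnnc2 (0.057), Pvalb (0.013), Atp2a1 (0.051) and Mylpf (0.13), and with the sarcomere covariate for Mylpf (0.036). Without replicates 4 and 5 at 5 mg/kg together, a choice made after seeing the data, Myh1 was at -0.40 and Myh2 at -0.21. The cause was not tested. With 1 library left out in turn the log2 fold change ran from -0.50 to 0.12 for Myh4, -0.10 to 0.60 for Myh1, 0.11 to 0.65 for Myh2, -0.28 to 0.31 for Mylpf, -0.44 to 0.21 for Tnnt3, -0.39 to 0.23 for Tnni2, -0.39 to 0.23 for Tnnc2, -0.54 to 0.12 for Actn3, -0.34 to 0.26 for Atp2a1 and -0.43 to 0.18 for Pvalb. With no scaling factor beyond library size, the median log2 fold change was -0.16 over all genes and -0.28 over the members, and 8 of 10 members were lower under that, RLE and upper-quartile scaling alike.

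With 1 library left out the difference of the share ran from -5.31 to -2.68 points for Myh4, 1.79 to 3.67 for Myh1, 0.84 to 1.64 for Myh2 and 1.49 to 2.66 for slow myosin (exact permutation p from 0.0346 to 0.154). As a log2 ratio the slow difference was 4.22. The shares kept their direction with read counts, coding length (chosen after seeing the data) or length in windows of 1 gene. The relation of Myh2 to slow share was r = 0.21 with log2 ratios, and that of Myh4 share to Acta1 was -0.73 without 2 libraries. Depth did not limit the members, but the 95% intervals of their fold changes were wide.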
